A study of Homo sapiens with 4 samples.

Results

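The integrin and laminin genes were compared between 320-IWR cells, a colorectal cancer line resistant to tankyrase inhibitors, and COLO-320DM cells, the line it came from. A probe set is a group of short oligonucleotides read together as 1 value. Members were taken by name alone: every probe set annotated to exactly 1 symbol of the ITGA, ITGB, LAMA, LAMB or LAMC series. This gave 95 of the 54613 probe sets tested, 72 for integrins and 23 for laminins, which stood for 35 of 19775 genes, 25 integrins and 10 laminins. A further 5 probe sets, 4 shared by ITGB6 and LINC02478 and 1 shared by LAMA5 and LAMA5-AS1, carry several symbols and were left out. ITGB6 and LAMA3 were not analysed here.

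320-IWR cells were raised from COLO-320DM cells by continuous exposure to IWR-1, a small molecule that inhibits the poly(ADP-ribose) polymerases tankyrase-1 and tankyrase-2. COLO-320DM is a human colorectal cancer line that depends on Wnt/β-catenin signaling, and it served as the parental control without that selection. Total RNA of dense cultures of each line was hybridised to 4 Affymetrix GeneChips (Human Genome U133 Plus 2.0), with 2 per line. 320-IWR is a line selected without a cloning step in the methods, and the study later derived clones from it, so it may be a mixed population. The sources used here do not say whether IWR-1 was present at harvest or whether the 2 arrays of a line stand for independent cultures. The p-values therefore rest on a spread that may be purely technical.

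The array medians lay between 41.1 and 41.9 intensity units, and across all probe sets the log2 values of the 2 arrays of a line correlated at r = 0.991 in 320-IWR cells and r = 0.990 in COLO-320DM cells. Of 10 colorectal epithelium markers, 1 rose (KRT20) and 2 fell (KRT8 and KRT18), where 0.592% of all genes, each read from its brightest probe set, were called in either direction. CDX2, the intestinal transcription factor, read 2723 and 2790.2 in 320-IWR cells and 3403 and 3263 in COLO-320DM cells, whereas the epithelial adhesion proteins EPCAM (13.5 and 18.1 in 320-IWR cells, 23.5 and 35.1 in COLO-320DM cells) and CDH1 (18.3 and 18.8 in 320-IWR cells, 16.2 and 18.3 in COLO-320DM cells) were dim in both lines. Of 7 leukocyte markers, 0 were called in either direction.

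Integrins are membrane receptors made of 1 α chain and 1 β chain, which tie the extracellular matrix outside the cell to actin or keratin filaments inside it and signal through focal adhesion kinase and Src family kinases. Laminins are matrix proteins made of 1 α, 1 β and 1 γ chain. They polymerise into the sheet of the basement membrane, where nidogen links them to type IV collagen, and the intestinal epithelium is anchored to that sheet mainly through laminin-binding integrins.

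No integrin or laminin gene passed the test between the lines, fitted with the line as its only term, and the 9 probe sets closest to it were all lower in 320-IWR cells. The β5 integrin chain ITGB5, which pairs with αv in a vitronectin receptor, had 52.3% of the parental intensity on its brightest probe set. The laminin β chains stood on opposite sides, with LAMB2 lower in 320-IWR cells and LAMB1 higher by its means. ITGAV and ITGA6, bright α chains, were higher in 320-IWR cells, and all 3 bright probe sets of ITGB1 were lower. Outside the 2 families, NID1, the nidogen that joins laminin to collagen IV, fell, averaging 27.7 intensity units in 320-IWR cells and 138 in COLO-320DM cells.

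A probe set was called where limma's adjusted p (Benjamini-Hochberg, over all 54613 probe sets) was under 0.05 and the difference at least 2-fold. Of the 95 members, 0 were called higher and 0 lower in 320-IWR cells, against 0.112% of all probe sets called higher and 0.258% called lower. At an unadjusted p under 0.05, 0 members were higher and 9 (9.47%) were lower, against 4.60% and 5.11% of all probe sets. At least 2-fold differences were found for 0 members upward and 2 downward, both at that unadjusted level, where 0.586% of all probe sets were higher and 1.36% lower by that much. The arrays of the lines did not overlap for 12 members that were higher (12.6%, against 19.5% of all probe sets) and for 26 that were lower (27.4%, against 16.1%). The median difference of the members was -0.01 on the log2 scale, beside 0.01 over all probe sets, with a range from -1.11 to 0.41.

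**Figure D1:**
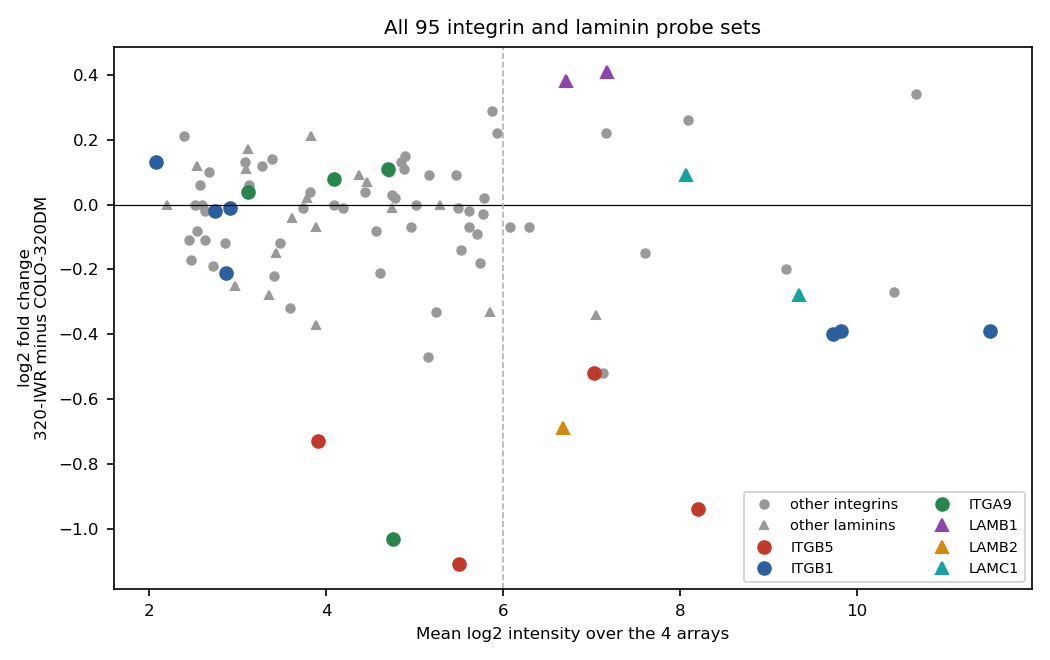
Each point is 1 of the 95 probe sets (circles for integrins, triangles for laminins). The x axis gives its mean log2 intensity over the 4 arrays, and the y axis its log2 fold change, 320-IWR minus COLO-320DM. The dashed line is drawn at 6. The limit of 6 for dim probe sets was applied to the higher of the line means, so a point left of the line can still pass it. The points furthest below 0 belong to ITGB5, ITGA9, LAMB2 and ITGA5, and the highest point is LAMB1 at 0.41.

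The lowest adjusted p of any member was 0.0610. The least significant probe set called anywhere on the arrays had an unadjusted p of 0.000182, and the smallest called difference was 1.23 on the log2 scale, larger than that of any member. Only 24 of the 95 member probe sets reached a mean log2 intensity of 6, which is 64 intensity units, in either line. That limit was chosen and is not a measured background. No detection calls were used here, so expression of such dim members cannot be told apart from background.

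Promoter sequences are given for 4 genes to which the results return, since ITGB5 was the most separated member, LAMB2 and LAMB1 differed in opposite directions, and NID1 was the gene called among their partners. Each is the 250 bases before an annotated start in RefSeq (GRCh38.p14), 5′ to 3′ on the minus strand, and capitals mark the GC box letters GGGCGG on either strand. The windows lie at chr3:124901419-124901668 for ITGB5 (the outermost of 3 annotated starts), chr3:49133051-49133300 for LAMB2, chr7:108003162-108003411 for LAMB1 and chr1:236065091-236065340 for NID1.
ITGB5: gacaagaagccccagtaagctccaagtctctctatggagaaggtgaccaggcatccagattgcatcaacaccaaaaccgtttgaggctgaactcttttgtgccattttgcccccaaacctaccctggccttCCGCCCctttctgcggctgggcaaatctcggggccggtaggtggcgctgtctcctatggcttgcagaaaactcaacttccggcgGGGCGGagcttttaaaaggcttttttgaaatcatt
LAMB2: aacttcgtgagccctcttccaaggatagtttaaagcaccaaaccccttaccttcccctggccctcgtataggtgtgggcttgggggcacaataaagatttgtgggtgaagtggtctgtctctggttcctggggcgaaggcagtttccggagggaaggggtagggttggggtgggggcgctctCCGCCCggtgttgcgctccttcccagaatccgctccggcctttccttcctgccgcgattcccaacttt
LAMB1: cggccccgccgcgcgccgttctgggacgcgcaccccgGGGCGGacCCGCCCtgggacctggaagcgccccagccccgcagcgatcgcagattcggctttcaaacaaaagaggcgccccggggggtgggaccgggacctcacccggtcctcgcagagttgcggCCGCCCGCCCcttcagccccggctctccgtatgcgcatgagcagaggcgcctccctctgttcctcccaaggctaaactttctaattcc
NID1: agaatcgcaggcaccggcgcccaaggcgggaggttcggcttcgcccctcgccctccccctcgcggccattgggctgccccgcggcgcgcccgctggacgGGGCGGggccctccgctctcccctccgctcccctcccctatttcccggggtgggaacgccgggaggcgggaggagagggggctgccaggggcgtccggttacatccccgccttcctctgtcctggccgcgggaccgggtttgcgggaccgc
The GC box, which Sp1-type factors can bind, occurred 2 times in the ITGB5 window shown and 1 time before LAMB2. It occurred 4 times before LAMB1 (a pair of them overlapping) and 1 time before NID1. The other ITGB5 windows, not shown, held 0 and 3. TCF/LEF letters, which are CTTTG with 2 further letters that are each A or T, were searched on either strand. They occurred 0 times in all 4 windows shown. RefSeq windows were matched for 24 of the 35 member genes, 31 windows in all. A GC box was found in 16 of these (51.6%), against 42.6% of 35116 windows of all genes, and TCF/LEF letters in 3 (9.7%), against 12.0%. These matches are a description of the letters in the windows.

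Among the receptors for RGD-containing ligands such as fibronectin and vitronectin, 7 of 8 genes were measured, 5 lower and 2 higher in 320-IWR cells by their brightest probe set, and 0 were called. ITGB5, on chromosome 3, had 4 probe sets. The most separated read 31.6 and 30.1 in 320-IWR cells and 65.4 and 68.0 in COLO-320DM cells. The lines were well separated, with a log2 fold change of -1.11 ± 0.12 (SE, 2 arrays each; 95% interval -1.42 to -0.81), but the adjusted p of limma was 0.0610. The brightest read 201 and 224 in 320-IWR cells and 394 and 419 in COLO-320DM cells, a log2 fold change of -0.94 ± 0.13 (SE; limma's adjusted p = 0.102). The third was also lower on both arrays of 320-IWR cells (108 and 111, against 132 and 187 in COLO-320DM cells). The fourth was dim and its arrays overlapped. All 4 thus had lower means in 320-IWR cells, and 3 separated the lines.

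ITGAV encodes the αv chain, the partner of β5. It read 1588 and 2100.0 in 320-IWR cells and 1435 and 1455 in COLO-320DM cells. Both 320-IWR arrays were above both COLO-320DM arrays, by 0.34 on the log2 scale (95% interval -0.11 to 0.79; limma's adjusted p = 0.683), so the chains of that receptor stood on opposite sides. The difference between them was not tested. ITGA5, the α chain of the classical fibronectin receptor, read 119 and 115 in 320-IWR cells and 153 and 182 in COLO-320DM cells, with no overlap and a log2 fold change of -0.52 ± 0.14 (SE; limma's adjusted p = 0.322). ITGA2B, the platelet fibrinogen receptor chain, differed by -0.07 on its brightest probe set and by -0.47 on a dim one. ITGA8, ITGB3 and ITGB8 lay between -0.09 and 0.02.

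**Figure D2:**
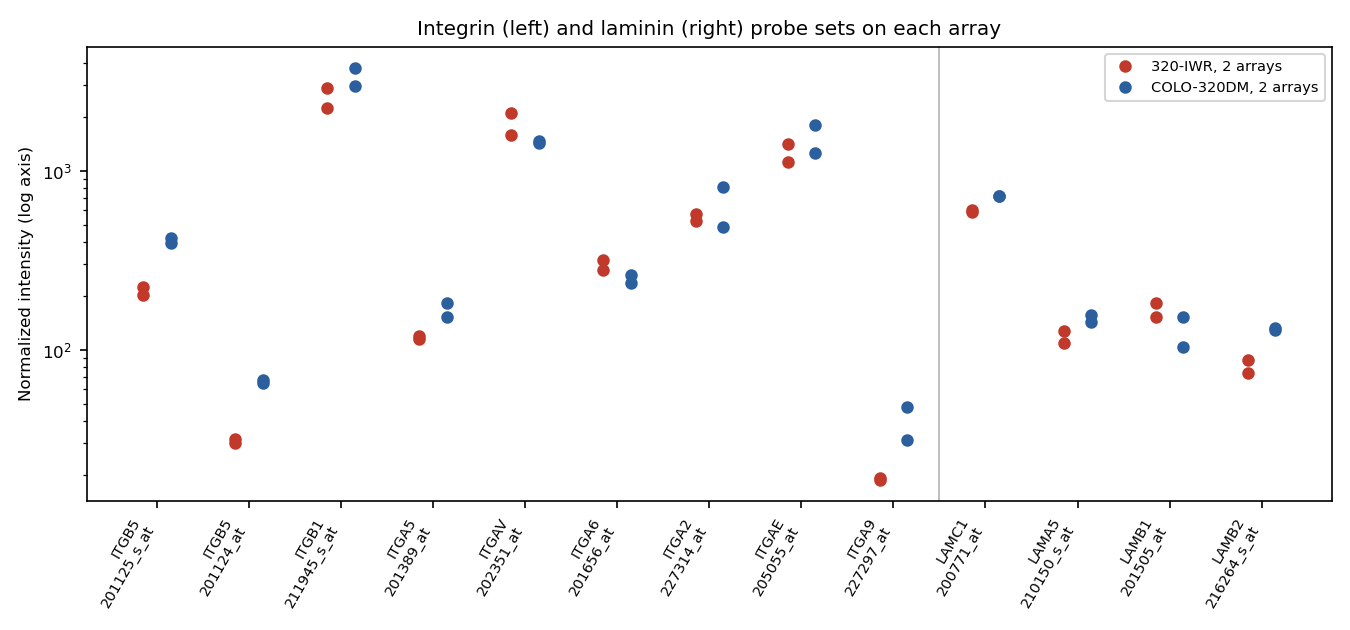
Normalized intensity (log axis) of 13 probe sets of the integrin and laminin genes named in the text, with the 2 arrays of 320-IWR cells in red to the left and the 2 arrays of COLO-320DM cells in blue to the right. The red and blue points are apart for ITGB5, ITGA9, ITGA5 and LAMB2, and they mix for ITGA2, ITGAE and LAMB1. Smaller differences without overlap are seen for ITGB1, LAMC1 and LAMA5 (lower in 320-IWR cells) and for ITGAV and ITGA6 (higher).

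All 5 laminin-binding integrin genes were measured, 2 lower and 3 higher in 320-IWR cells by their brightest probe set, with a median of 0.03 and 0 called. ITGB1, on chromosome 10, encodes the β chain shared by most matrix receptors. Its brightest probe set read 2902 and 2237 in 320-IWR cells and 3762 and 2955 in COLO-320DM cells. The arrays came close to each other without overlap, and the log2 fold change of -0.39 had a 95% interval from -0.91 to 0.14 (limma's adjusted p = 0.688). The next 2 probe sets gave nearly the same difference, -0.39 for one (801 and 782 in 320-IWR cells, 1085 and 993 in COLO-320DM cells) and -0.40 for the other, both without overlap. The other 4 were dim, from -0.21 to 0.13.

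ITGA6 encodes the α chain that joins β1 or β4 to bind laminin. It read 278 and 317 in 320-IWR cells and 235 and 262 in COLO-320DM cells, higher without overlap by 0.26 on the log2 scale (95% interval -0.10 to 0.62), and its second probe set differed by 0.22 with overlap. ITGB4, which anchors hemidesmosomes, split between probe sets, at 0.22 on the brightest and -0.18 on the next, each without overlap. ITGA3 differed by 0.03 and ITGA7 by -0.01.

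The collagen-binding α chains comprised 4 genes, 1 lower and 3 higher, with a median of 0.08. ITGA2, on chromosome 5, read 575 and 523 in 320-IWR cells and 810.4 and 487 in COLO-320DM cells. The 320-IWR arrays fell between the COLO-320DM arrays, so no direction can be given (-0.20, 95% interval -0.89 to 0.50). ITGA11 was higher without overlap, at 63.9 and 65.0 in 320-IWR cells and 52.6 and 52.9 in COLO-320DM cells, a log2 fold change of 0.29. ITGA1 and ITGA10 differed by 0.00 and 0.15.

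ITGA9, on chromosome 3, encodes an α chain that binds tenascin-C and osteopontin. Its brightest probe set was still dim, with 18.7 and 19.3 in 320-IWR cells and 47.8 and 31.3 in COLO-320DM cells. It was lower without overlap, with a log2 fold change of -1.03 (95% interval -1.62 to -0.43; limma's adjusted p = 0.227). The other 3 probe sets of ITGA9 gave differences of 0.04 to 0.11, all with overlap. ITGA4, the other member of that group, had 4 dim probe sets, from -0.19 to -0.08.

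The leukocyte integrins comprised 7 genes, 6 lower and 1 higher, all between -0.27 and 0.09. ITGAE, the α chain of the receptor by which intraepithelial lymphocytes bind E-cadherin, was the bright one of the group. It read 1401 and 1120.0 in 320-IWR cells and 1808 and 1256 in COLO-320DM cells, with overlap (-0.27, 95% interval -0.87 to 0.33). ITGAD, ITGAL, ITGAM and ITGAX, α chains of the β2 family, and ITGB2 itself were dim in both lines. The partner of ITGAE, ITGB7, read 69.1 and 63.1 in 320-IWR cells and 66.7 and 72.0 in COLO-320DM cells. The summed intensity of the 7 leukocyte markers was 473 and 414 in 320-IWR cells and 450.3 and 376 in COLO-320DM cells, without any marker that separated the lines at an unadjusted p under 0.05.

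**Figure D3:**
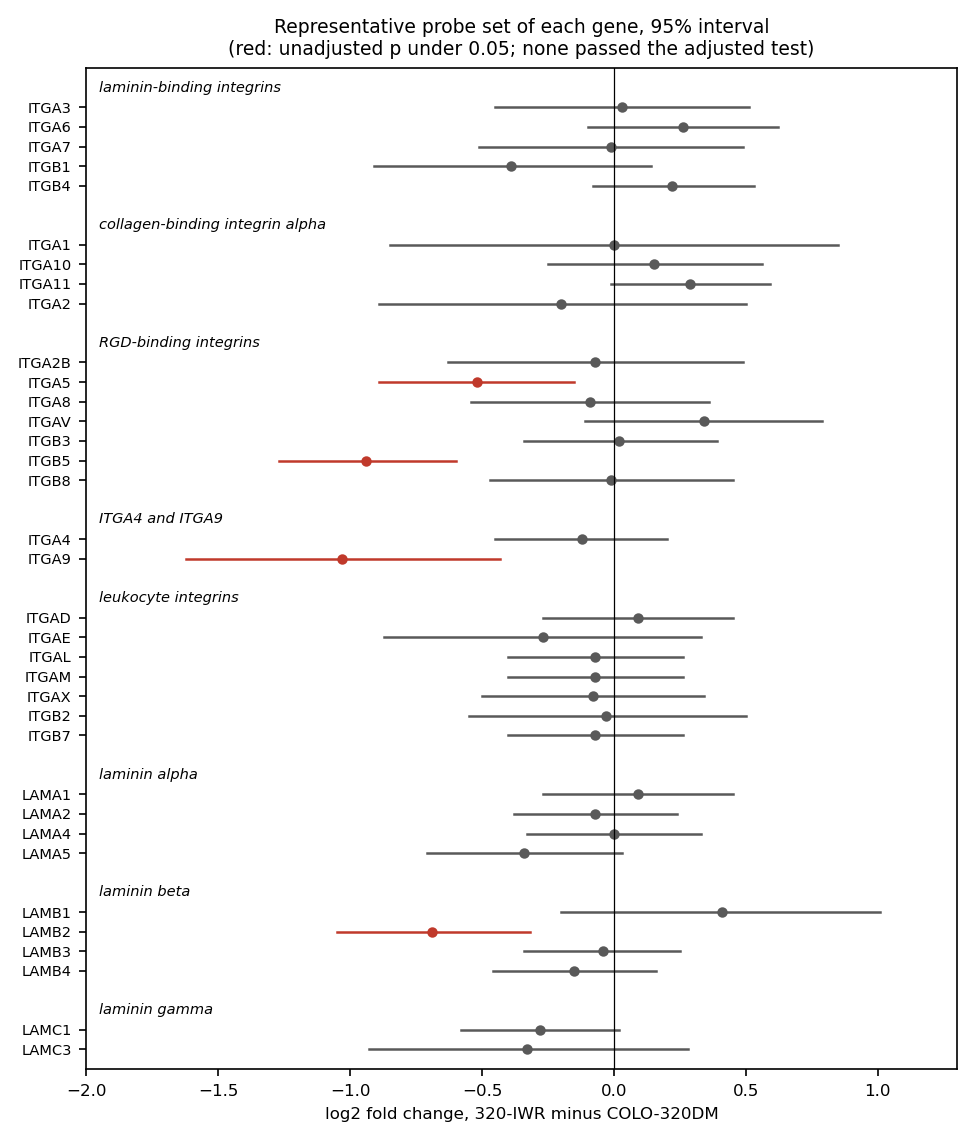
Log2 fold change, 320-IWR minus COLO-320DM, of the brightest probe set of each of the 35 genes, grouped by role, with 95% intervals from limma (x axis, log2 units). Red marks the 4 genes with an unadjusted p under 0.05 (ITGA5, ITGB5, ITGA9 and LAMB2), all lower in 320-IWR cells and 0 of them called.

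Of the 10 laminin genes, 3 were higher and 7 lower in 320-IWR cells by their brightest probe set, with a median of -0.11, beside -0.07 for the 25 integrin genes and 0.02 for all genes. The sign of these medians is not stable against the choice of arrays and probe sets. That of the integrins was 0.06 without COLO-320DM replicate 1 and 0.10 without 320-IWR replicate 2. That of the laminins was 0.08 when _x_at and _s_at probe sets, which can read several transcripts, were excluded. This exclusion drops LAMB2 and LAMA5, which had no other member probe set, so the 0.08 covers fewer laminin genes. LAMB2, on chromosome 3, encodes the β2 chain of laminins of muscle, kidney and vessel basement membranes. It read 74.4 and 88.0 in 320-IWR cells and 132 and 128 in COLO-320DM cells. The lines were separate, with a log2 fold change of -0.69 ± 0.14 (SE, 2 arrays each; 95% interval -1.05 to -0.32; limma's adjusted p = 0.198). LAMB1, on chromosome 7, encodes the β1 chain found in most epithelial laminins. It read 152 and 183 in 320-IWR cells and 104 and 153 in COLO-320DM cells on its brightest probe set, where the arrays overlapped, and 113 and 126 in 320-IWR cells and 74.9 and 112 in COLO-320DM cells on the second. These were log2 fold changes of 0.41 (95% interval -0.20 to 1.01) and 0.38 (-0.21 to 0.97). The difference between the β chains was not tested.

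LAMC1, on chromosome 1, encodes the γ1 chain shared by most laminins. Its brightest probe set read 601 and 587 in 320-IWR cells and 720.4 and 718 in COLO-320DM cells, narrowly separate with a log2 fold change of -0.28 (95% interval -0.58 to 0.02). Its second probe set was higher in 320-IWR cells, at 281 and 272, against 259 and 262 in COLO-320DM cells, so the probe sets of this gene disagree on the direction. LAMA5, the main α chain of adult epithelial laminins, read 109 and 127 in 320-IWR cells and 157 and 142 in COLO-320DM cells (-0.34, 95% interval -0.71 to 0.03). The probe set shared with LAMA5-AS1 differed by 0.35. LAMC3 was lower by mean with overlap (-0.33), and LAMA4 differed by 0.00 on its brightest probe set and by -0.37 on a dim one (unadjusted p in limma 0.0312). LAMA1, LAMA2, LAMB3 and LAMB4 were dim in both lines, between -0.15 and 0.09.

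The partners of these receptors and ligands were read from 5 lists drawn from general knowledge of adhesion biology, at 1 probe set for each gene. Over all genes read in this way, 0.592% were called, and at an unadjusted p under 0.05, 5.91% were higher and 6.36% lower. Of 28 basement membrane proteins and laminin partners, 0 rose and 1 fell, with 1 higher and 4 lower at an unadjusted p under 0.05 and a median of -0.07. NID1, on chromosome 1, read 30.4 and 25.0 in 320-IWR cells and 140.1 and 135 in COLO-320DM cells. It fell by 2.32 on the log2 scale (SE 0.15, 95% interval -2.70 to -1.94; limma's adjusted p = 0.0170). The readings in 320-IWR cells lay below 64 units, the limit chosen here for dim probe sets, and may lie near background. The size of this difference is therefore not settled, and the same holds for TNC, TNS3 and the most separated probe set of ITGB5. It holds too for FN1, with a mean of 57.4 units in 320-IWR cells, and for KRT20, with 52.1 in COLO-320DM cells. The other 2 probe sets of NID1 were lower without overlap, with log2 fold changes of -0.30 and -0.82. The call of NID1 was lost when any 1 array was left out, with limma's adjusted p between 0.0823 and 0.193, and without 320-IWR replicate 1 or 2, limma called 0 of all probe sets, where 3756 and 3502 had an unadjusted p under 0.05.

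FRAS1 and FREM2, which form a complex under epithelia during development, were also lower in 320-IWR cells and not called. FRAS1 read 642 and 522 in 320-IWR cells and 2401 and 1266 in COLO-320DM cells (-1.59, limma's adjusted p = 0.208), and all 6 of its probe sets had lower means in 320-IWR cells. FREM2 read 227 and 331 in 320-IWR cells and 718 and 834 in COLO-320DM cells (-1.50, adjusted p = 0.116). Neither gene's arrays overlapped on these probe sets. NID2, the other nidogen, differed by 0.06 but was dim in both lines. The 6 type IV collagen genes lay between -0.13 and -0.01. Of these, COL4A1 (-0.10) and COL4A2 (-0.03) were bright, while COL4A3, COL4A4, COL4A5 and COL4A6 were dim in both lines. For the dim genes, an unchanged reading cannot be told apart from background.

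Of 36 other integrin ligands and their regulators, 0 were called, with 4 higher and 4 lower at an unadjusted p under 0.05 and a median of -0.04. TNC encodes tenascin-C, a ligand of α9 and αv integrins. It read 11.3 and 12.3 in 320-IWR cells and 58.9 and 169 in COLO-320DM cells, far apart but with a wide spread within COLO-320DM cells (-3.08, 95% interval -4.40 to -1.76; limma's adjusted p = 0.137). Its other probe sets, dim in both lines, differed by -0.15 and -0.17. FN1, fibronectin, read 45.3 and 69.4 in 320-IWR cells and 128 and 103 in COLO-320DM cells (-1.04, adjusted p = 0.264), and 4 of its 7 probe sets were lower. LTBP1, which tethers latent TGF-β to the matrix, read 203 and 241 in 320-IWR cells and 519.6 and 602 in COLO-320DM cells (-1.34, adjusted p = 0.0734). TGFB1, which αv integrins release from its latent form, and ICAM3, a ligand of leukocyte integrins, were higher without overlap. TGFB1 read 138 and 245 in 320-IWR cells and 54.7 and 92.7 in COLO-320DM cells (1.37, limma's adjusted p = 0.332). Its second probe set differed by only 0.33 (95% interval -0.09 to 0.76), at 85.3 and 71.1 in 320-IWR cells and 67.4 and 56.8 in COLO-320DM cells. ICAM3 read 215 and 308 in 320-IWR cells and 100.0 and 153 in COLO-320DM cells (1.06, limma's adjusted p = 0.312).

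**Figure D4:**
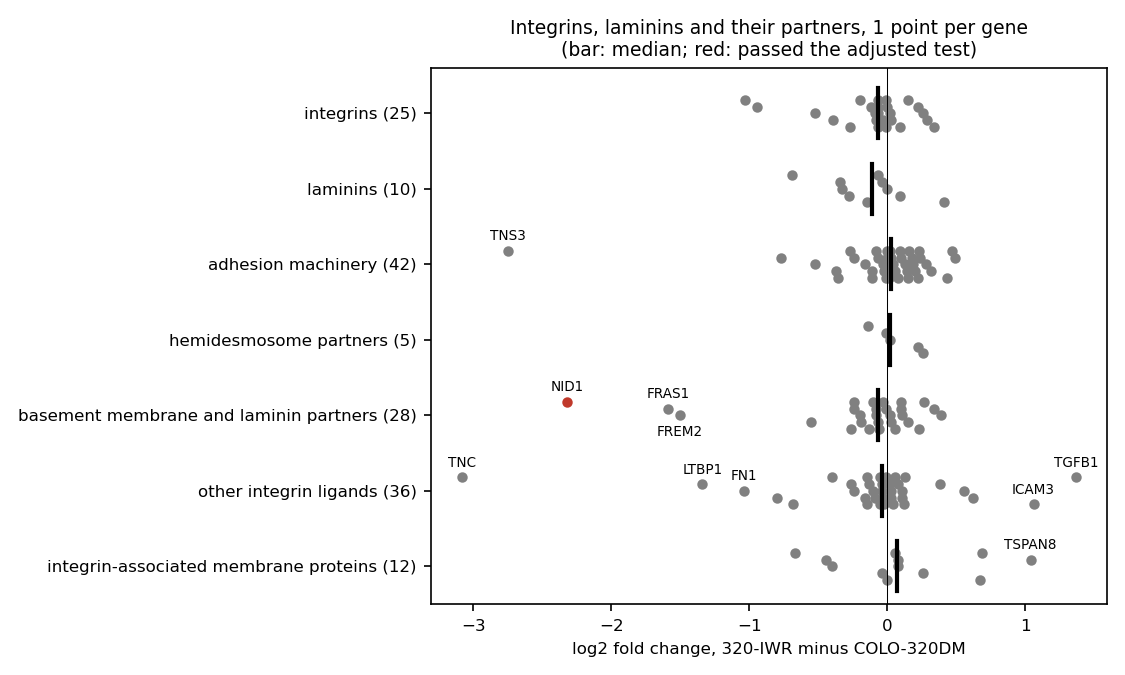
Log2 fold change, 320-IWR minus COLO-320DM (x axis), of 1 probe set for each gene of the 2 families and of 5 lists of their partners, with the number of genes in parentheses and the median as a bar. The medians lie between -0.11 and 0.07, NID1 in red is the called gene, and named points such as TNC (-3.08) and TGFB1 (1.37) were not called.

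Inside the cell, 0 of 42 genes of the adhesion machinery were called, with 2 higher and 5 lower at an unadjusted p under 0.05 and a median of 0.03. TNS3, a tensin that links β chains to actin, read 11.9 and 20.4 in 320-IWR cells and 76.7 and 143 in COLO-320DM cells (-2.75, limma's adjusted p = 0.111), while its second, dim probe set differed by 0.05. The kinases FYN, PTK2 (focal adhesion kinase) and SRC were lower without overlap, with log2 fold changes of -0.77, -0.52 and -0.36 (limma's adjusted p = 0.225, 0.324 and 0.398). SHARPIN was also lower (-0.37). The kindlin FERMT2 and ITGB1BP1 were higher by 0.43 and 0.49 (limma's adjusted p = 0.439 and 0.426). TLN1, the talin that activates integrins, differed by -0.07 and VCL, vinculin, by 0.09. Of 12 membrane proteins that associate with integrins, 0 were called, with 2 higher and 2 lower at an unadjusted p under 0.05. The tetraspanin TSPAN8 read 889 and 849 in 320-IWR cells and 448 and 398 in COLO-320DM cells (1.04, limma's adjusted p = 0.0821). Of 5 hemidesmosome partners, 0 were called or reached an unadjusted p under 0.05.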

How the data were processed

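Gene expression of 320-IWR and COLO-320DM cells was measured on 4 arrays, 2 for each line, which were grouped by their labels. The deposited values are probe set intensities on a linear scale, which the authors made with RMA per the labels and normalized with GeneSpring GX per the methods, with no version given in the sources used here. The lowest intensity was 3.51, so a floor of 1 changed nothing before log2 was taken.

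After removal of 62 controls from 54675 probe sets, the remaining 54613 were fitted with limma 3.58.1 (lmFit and eBayes, constant prior, R 4.3.3), with the line as the only term. The prior had 2.78 degrees of freedom, and intervals are 95%. The annotation gives 41091 probe sets 1 symbol, 1801 several and 11721 none. Each gene was read from its brightest probe set, by mean log2 value over the 4 arrays. The limma fit and the calling rule were tested on simulated data.

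The members and lists were chosen with earlier results of these data known. Members were given array by array where a probe set was called, or had an unadjusted p under 0.05, at least a 2-fold difference and no overlap, or where the representative had a mean log2 value of at least 8. Partner genes were named where called, or as up to 4 of a list by the smallest p among those with at least a 2-fold difference and no overlap. ITGA5, ITGA11, ITGB7, LAMA5, LAMB1, LAMB2, TGFB1 and the other genes named outside this rule were chosen after their values were seen. Promoter windows came from RefSeq, GRCh38.p14.

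The alternatives were a replicate block, leaving out each array, scaling by cyclic loess or to equal medians, removing dim probe sets (mean log2 under 6 in both lines), a trended robust prior, dropping the fold limit, testing with limma's treat at 1.2-fold, excluding _x_at and _s_at probe sets, and averaging the probe sets of each gene. The number of arrays limits the precision.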

Additional observations from a re-analysis of the deposited data

How the results depend on the processing

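The labels number the arrays of each line 1 and 2 but do not say that equal numbers share a culture or a batch. The deviations of same-numbered arrays from their line's mean correlated at r = 0.661 over all probe sets and 0.631 over the members. With the replicate number as a block (replicate block), limma called 1 member probe set lower, the most separated one of ITGB5 (log2 fold change -1.11, adjusted p = 0.0427), where 0 were called without it, and the brightest one of ITGB5 reached an adjusted p of 0.0489 at a difference under 2-fold; over all probe sets the counts were 182 higher and 394 lower, against 61 and 141. Partner genes were counted under the alternatives for 4 of the 5 lists, without the membrane proteins that associate with integrins. With the block, these lists had 2 genes called higher (ICAM3 and TGFB1) and 4 called lower (FREM2, LTBP1, NID1 and TNS3), in place of 0 and 1. Over all alternatives the adjusted p of that probe set ran from 0.0427 to 0.415. With each array left out in turn, the median of the integrin genes lay between -0.16 and 0.10 (it was -0.07 with all arrays) and that of the laminin genes between -0.15 and -0.06 (-0.11 with all arrays), so the sign of the integrin median rests on single arrays: it was 0.06 without COLO-320DM replicate 1, 0.10 without 320-IWR replicate 2 and -0.16 without 320-IWR replicate 1. Partner genes called lower then numbered 0 to 1. The 1 call without COLO-320DM replicate 1 was TNC, not NID1, whose log2 fold change stayed between -2.46 and -2.18 but was no longer called. The log2 fold change of ITGA2 then ranged from -0.56 to 0.17, with 0.17 found without COLO-320DM replicate 1. Others that were not called moved as much: ITGAE from -0.53 to 0.00 (0.00, no direction, without COLO-320DM replicate 1), LAMB1 from 0.12 to 0.69, ITGB1 from -0.58 to -0.20, ITGAV from 0.14 to 0.54 and ITGA9 from -1.33 to -0.72. The laminin median was -0.33 over the 5 laminin genes left when dim probe sets were filtered out. It was 0.08 when _x_at and _s_at probe sets were excluded. That exclusion changes the probe sets that stand for these genes and drops LAMB2 and LAMA5, so these medians cover different genes. Cyclic loess called 2 partner genes lower (LTBP1 and NID1). Averaging the probe sets of each gene gave 0 calls among the members and the partner genes of those 4 lists, and 185 over all genes. Of the remaining values under an alternative, 73 counts and medians stayed within 1.5 times (counts) or within the replicate spread (medians), and 147 results of single probe sets gave the same call or lack of one. Where a line keeps 1 array, that array is assumed to vary like those of the other line.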
